A study of Mus musculus with 24 samples.

Results

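10 genes long described as targets of FoxO transcription factors in cell stress and muscle atrophy were followed through the adult mouse hippocampus: Fbxo32, Bnip3, Bnip3l, Sesn1, Sesn3, Gadd45a, Cdkn1b, Cited2, Txnip and Sod2. They were chosen by gene symbol, with earlier results of these data known. Each was read from its probe with the highest mean. All 10 were among the 19938 genes that the arrays measured with a single-symbol probe. The 24 arrays fell into 4 groups of 6: wild type at basal, FoxO6 mutant at basal, wild type after learning and FoxO6 mutant after learning. All animals were male mice, 8 to 9 weeks old, on a C57BL/6J-129sv mixed background, and the mutants are labelled FoxO6 -/- and, elsewhere, FoxO6 null, with no tissue-restricted driver or clone named. Basal mice were housed alone for at least 3 days. Learning mice were handled daily, spent 10 min in an empty arena 24 h before the task, then met a pair of identical objects new to them for 10 min, with tissue taken 60 min afterwards. Single housing is stated for basal mice only. Single housing, handling, arena, task and any batch therefore cannot be told apart in the comparison of states. The labels call the arrays biological replicates without saying that each came from a separate animal, so p-values measure only the spread between these samples.

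FoxO proteins are forkhead transcription factors that insulin, growth factor and neurotrophin signalling hold out of the nucleus through AKT and SGK kinases, and that stress kinases and loss of growth factor signalling activate. FoxO1, FoxO3 and FoxO4 are widely expressed, whereas FoxO6 is most abundant in the adult brain and shuttles less readily out of the nucleus. The target genes followed here are known mainly from muscle, liver and cultured cells, where FoxO factors switch on protein breakdown, removal of mitochondria, defence against oxidants and cell cycle arrest; most of them also answer to other factors, among them p53, HIF-1, glucocorticoid receptor and glucose-sensing MondoA.

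The sequences before the start sites are shown for the 3 genes with the largest rises after learning in wild type by the probes used. For Sesn1 a short site is shown. The sequences are given so that the motifs named below can be read in place. They are RefSeq sequences of build GRCm38.p6, written 5′ to 3′ on the gene's strand. Windows of 250 bases before to 50 after the start were matched for 8 of the 10 genes, with 2 windows for Sesn1; Fbxo32 and Bnip3l were not searched. Capitals mark the forkhead motif GTAAACA in Txnip and Sesn1 (where it reads on the other strand), the octamer motif ATTTGCAT in both orientations in Gadd45a, and the hexamer CACGTG around the motif ACGTG in Bnip3.
Txnip, chr3:96557707-96557956, plus strand: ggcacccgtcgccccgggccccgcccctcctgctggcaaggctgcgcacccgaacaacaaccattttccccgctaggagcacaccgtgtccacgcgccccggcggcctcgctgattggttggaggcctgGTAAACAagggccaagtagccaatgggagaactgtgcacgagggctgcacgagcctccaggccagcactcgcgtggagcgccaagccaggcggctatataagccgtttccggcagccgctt
Gadd45a, chr6:67037408-67037657, minus strand: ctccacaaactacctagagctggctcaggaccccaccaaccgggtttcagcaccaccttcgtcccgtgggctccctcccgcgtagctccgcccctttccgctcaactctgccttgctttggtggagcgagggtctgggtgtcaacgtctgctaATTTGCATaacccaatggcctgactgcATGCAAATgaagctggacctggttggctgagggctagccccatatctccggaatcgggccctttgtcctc
Bnip3, chr7:138909507-138909756, minus strand: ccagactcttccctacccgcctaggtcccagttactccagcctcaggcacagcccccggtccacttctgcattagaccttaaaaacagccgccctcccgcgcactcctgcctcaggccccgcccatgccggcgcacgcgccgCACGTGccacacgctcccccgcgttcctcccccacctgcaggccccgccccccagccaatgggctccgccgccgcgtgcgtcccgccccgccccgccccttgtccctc
Sesn1, chr10:41810585-41810614, plus strand, inside the transcript: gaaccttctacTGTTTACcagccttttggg

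Both strands were searched for each motif. The forkhead motif GTAAACA lay at -121 to -115 in Txnip and at 23 to 29 after the start in the first Sesn1 window, and 3.65% of all 32851 promoter windows held it. The related forkhead motif CAAAACA was in 0 of the 8 genes and in 6.28% of all windows. The other 3 motifs were chosen after the values or the sequences were seen. ACGTG, the core that HIF-1 and other basic helix-loop-helix factors bind, was in Bnip3, where it reads on both strands of CACGTG from -108 to -103, and in Cited2 from -153 to -148, against 19.6% of all windows. TGACG, the core of the CREB site, was in Cdkn1b and in the second Sesn1 window, against 20.8%. The octamer ATTTGCAT was in Gadd45a at -97 to -90 and -70 to -63 and in Sesn3 at -244 to -237, against 1.74%. These matches are descriptions of letters in a window and say nothing of binding.

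The targeted gene was checked first. Foxo6 (chr4:120267078-120287261) read between 6.78 and 7.30 (median 7.04, log2 array value) in wild type at basal, and between 6.18 and 6.59 (median 6.26) in mutants at basal. After learning it read between 6.62 and 7.04 (median 6.90) in wild type and between 5.98 and 6.38 (median 6.28) in mutants. In both states every mutant array lay below every wild-type array, with differences of -0.73 (SE 0.0906, limma adjusted p = 0.000128) at basal and -0.63 (adjusted p = 0.000833) after learning. None of the 10 targets lies on chromosome 4 with Foxo6.

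Array medians ran from 6.16 to 6.30, arrays of a group correlated at 0.991 to 0.997 across genes, and the first principal component, with 46.6% of the variance, separated the states. The mean of 8 markers of hippocampal pyramidal and granule neurons lay between 9.26 and 9.69 on every array. Among them Spink8 read low, with a mean of 6.35 (SD 0.49) in wild type at basal, near the array medians. After learning, 1 of the 8 neuron markers rose and 4 fell in wild type, and in the mutant 0 rose and 4 fell. Against wild type, 1 (Fibcd1) was called lower in the mutant in each state. On average over the states 3 were called lower: Fibcd1 (-0.34), C1ql2 (-0.29) and Prox1 (-0.20). The part of these shifts in the targets' genotype differences was not tested. Astrocyte markers fell after learning (4 of 7 in wild type with 1 rising, 5 of 7 in the mutant). So did 3 and 4 of 8 endothelial and mural markers (median -0.14 and -0.22), with 1 rising in each genotype. Of 7 interneuron markers, 4 and 3 rose and 2 fell. Of 7 microglia markers, 3 rose and 1 fell in wild type, and 2 rose and 2 fell in the mutant. Of 6 measured oligodendrocyte markers, 1 rose and 2 fell in wild type, and 2 rose and 2 fell in the mutant. Over all genes tested, 43.3% were called after learning in wild type and 41.3% in the mutant. The 14 measured choroid plexus markers of 16 listed moved with both factors: all 14 were higher in the mutant in each state (median difference 0.22 at basal and 0.15 after learning, 0 called), and all 14 were lower after learning (median -0.23 in wild type with 1 called, -0.26 in the mutant with 5 called). Their mean ran from 5.89 to 6.90 in wild type at basal, 6.44 to 6.95 in mutants at basal, 6.00 to 6.26 in wild type after learning and 5.95 to 6.84 in mutants after learning. In wild type at basal, Ttr, the choroid plexus transthyretin gene, read 8.80, 9.64 and 9.17 on arrays 4, 5 and 6, and 11.65 to 12.11 on the other 3. In bulk tissue, fewer cells of a type and less RNA per cell cannot be told apart.

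The comparison of states asks how the target genes read 60 min after exploration of objects, in each genotype. Among the 10 targets, 7 rose in wild type and 2 fell, and the same 7 rose and the same 2 fell in the mutant. The risers were Bnip3, Gadd45a, Txnip, Sesn1, Bnip3l, Sesn3 and Sod2, the fallers were Fbxo32 and Cited2, and Cdkn1b did not pass the test in either genotype. Differences ran from -0.37 to 0.84 in wild type and from -0.46 to 0.95 in the mutant, on the log2 scale. The 10 genes and the lists below were chosen with earlier results of these data known, so their counts and medians are descriptions only. The background was high. In wild type, 25.1% of the genes tested passed upward and 18.2% downward (43.3% either way). In the mutant 22.6% passed upward and 18.7% downward (41.3% either way). The background was higher still among well-measured genes. When only the 9969 genes above the median of all gene means were tested, all 10 targets were among them. Of these 9969 genes, 6805 were called in wild type and 6666 in the mutant, with 9 targets called in each. Groups did not overlap for 8 of 10 targets in each genotype, all but Sesn3 and Cdkn1b, where 25.2% of all genes did not overlap in wild type and 22.7% in the mutant. The median difference over the 10 was 0.29 in wild type and 0.28 in the mutant, against 0.03 over all genes in both. The median size was 0.37 and 0.45, against 0.146 and 0.140 over all genes. Medians over the 9969 better-measured genes alone were not taken. With the choroid plexus marker mean as a covariate, 9 targets were called in wild type and 8 in the mutant, and without wild-type basal arrays 4, 5 and 6, a choice made after seeing the data, 9 were called in wild type. The part of the neuron, astrocyte and vascular markers' shifts in these results was not tested.

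**Figure D1:**
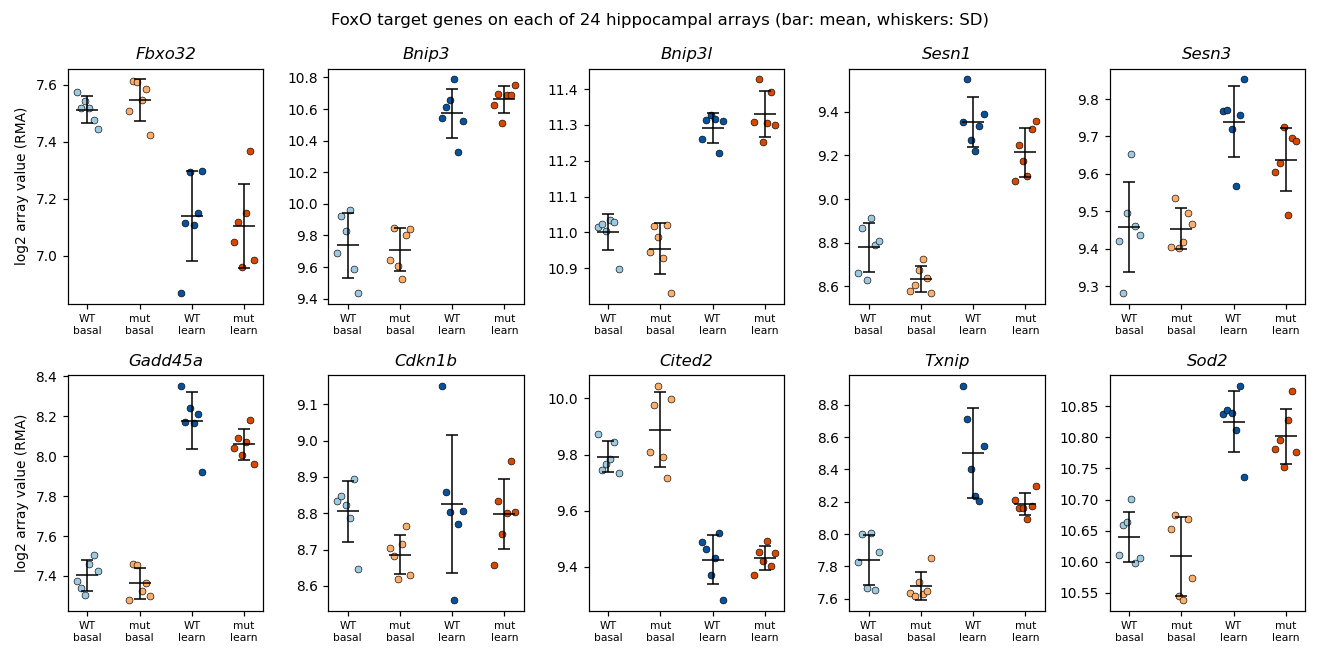
Log2 array value (vertical axes, each gene on its own scale) of the 10 FoxO target genes on every array; points are arrays in 4 groups of 6, horizontal bars are means and whiskers are 1 SD. For 8 of the 10 genes, all but Sesn3 and Cdkn1b, the learning arrays of a genotype do not overlap its basal arrays, while wild-type and mutant points of one state overlap for every gene.

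Bnip3 and Bnip3l encode related BH3-family proteins of the outer mitochondrial membrane that act as receptors for mitophagy and are induced by hypoxia and, in muscle, by FoxO3. Bnip3 (probe 10414269, chr7:138890836-138909506) read from 9.44 to 9.96 (median 9.76) in wild type at basal and from 10.33 to 10.79 (median 10.58) after learning. The mutant arrays ran from 9.53 to 9.84 (median 9.72) at basal and from 10.51 to 10.75 (median 10.69) after learning. The states were fully separated in both genotypes, with the widest gap of the 10 genes in the mutant. By this probe the rise was 0.84 in wild type (SE 0.0763, 1.79-fold, limma adjusted p = 3.05e-10) and 0.95 in the mutant (1.93-fold, adjusted p = 2.24e-11). These rises were larger in size than the differences of 99.6% and 99.8% of genes. The second probe of Bnip3 rose less, as given below.

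Bnip3l (probe 10394800, chr14:66985238-67008877) read from 10.90 to 11.03 (median 11.02) in wild type at basal and from 11.22 to 11.33 (median 11.31) after learning. Mutant arrays read from 10.83 to 11.02 (median 10.97) at basal and from 11.25 to 11.43 (median 11.31) after learning. Every learning array lay above every basal array. The rise was 0.29 (SE 0.0351, adjusted p = 5.72e-08) in wild type and 0.38 (adjusted p = 4.56e-10) in the mutant. The platform gives both genes a second probe with the same annotation, and RefSeq lists a processed copy, Bnip3l-ps. Which locus each probe reads is therefore uncertain, and the coordinates given are those of the RefSeq genes, not of the probes. The second probes rose as well: that of Bnip3 by 0.55 in wild type and 0.53 in the mutant (adjusted p = 7.26e-11 and 1.39e-10), and that of Bnip3l by 0.31 and 0.42 (adjusted p = 1.85e-08 and 6.28e-11).

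Sesn1 and Sesn3 encode sestrins, stress proteins that restrain mTORC1 through GATOR2 and support antioxidant defence; Sesn1 is also a p53 target and Sesn3 a FoxO1 and FoxO3 target. Sesn1 (probe 10362811, chr10:41810574-41908436) read from 8.63 to 8.91 (median 8.80) in wild type at basal and from 9.22 to 9.55 (median 9.34) after learning. In the FoxO6 mutant the gene read from 8.57 to 8.73 (median 8.62) at basal and from 9.08 to 9.36 (median 9.21) after learning. The states did not overlap, and the rise was almost the same size in each genotype: 0.57 in wild type (SE 0.0570, 1.49-fold, adjusted p = 1.52e-09) and 0.58 in the mutant (adjusted p = 1.17e-09).

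Sesn3 (probe 10583242, chr9:14276301-14326134) read from 9.28 to 9.65 (median 9.45) in wild type at basal and from 9.57 to 9.85 (median 9.76) after learning. Readings in mutants ran from 9.40 to 9.54 (median 9.44) at basal and from 9.49 to 9.72 (median 9.66) after learning. The lowest learning arrays fell among the basal ones in both genotypes. The rise was 0.28 (SE 0.0513, adjusted p = 3.92e-05) in wild type and 0.18 (adjusted p = 0.00421) in the mutant. With the choroid plexus marker mean as a covariate, the mutant value was 0.14 and no longer passed (adjusted p = 0.0525); within groups, Sesn3 correlated with that mean at -0.39 over the 24 arrays.

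Gadd45a encodes a small stress protein that binds PCNA, p21 and MAP kinase kinase kinases, and takes part in DNA repair and cell cycle checkpoints. It (probe 10545130, chr6:67035096-67037407) read from 7.31 to 7.50 (median 7.40) in wild type at basal and from 7.92 to 8.35 (median 8.19) after learning. Mutants gave values from 7.28 to 7.46 (median 7.34) at basal and from 7.96 to 8.18 (median 8.06) after learning. No learning array came within the basal range. Gadd45a rose by 0.78 (SE 0.0589, 1.71-fold, adjusted p = 7.83e-12) in wild type, the smallest p of the 10 genes there, and by 0.70 (1.62-fold, adjusted p = 6.35e-11) in the mutant. Its within-group correlation with the choroid plexus marker mean was -0.54, the strongest of the 10, and with that mean as a covariate it remained called in both genotypes. Its relatives Gadd45b and Gadd45g rose with it, by 0.73 and 0.62 in wild type and by 0.75 and 0.67 in the mutant.

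Cdkn1b encodes p27, an inhibitor of cyclin-dependent kinases that FoxO factors raise to hold cells in G1. Cdkn1b (probe 10542310, chr6:134920401-134925525) read from 8.65 to 8.89 (median 8.83) in wild type at basal and from 8.56 to 9.15 (median 8.80) after learning. The mutant arrays ran from 8.62 to 8.76 (median 8.69) at basal and from 8.66 to 8.95 (median 8.80) after learning. The ranges overlapped throughout, and the widest spread was in wild type after learning, where array 1 read 9.15. The difference was 0.02 in wild type (95% confidence interval -0.11 to 0.15, adjusted p = 0.834) and 0.11 in the mutant (-0.02 to 0.24, adjusted p = 0.171). Its second probe differed by 0.33 in wild type (SE 0.173, adjusted p = 0.130) and 0.10 in the mutant, again without passing.

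Txnip and Sod2 act on the redox state. Txnip, the thioredoxin-interacting protein, binds reduced thioredoxin and lowers glucose uptake. It (probe 10494428, chr3:96557957-96561857) read from 7.65 to 8.00 (median 7.86) in wild type at basal and from 8.21 to 8.92 (median 8.47) after learning. Mutant arrays read from 7.62 to 7.85 (median 7.64) at basal and from 8.10 to 8.30 (median 8.17) after learning. The states were separated in both genotypes, and wild-type learning arrays spread the most (SD 0.278 against 0.0682 in the mutant, n = 6 each). The wild-type rise was 0.66 (SE 0.0879, 1.58-fold, adjusted p = 2.95e-07), and the mutant rise was 0.50 (1.42-fold, adjusted p = 2.14e-05). Among its relatives, the alpha-arrestin genes Arrdc3 and Arrdc4 rose by 0.45 and 0.37 in wild type and by 0.36 and 0.33 in the mutant, and Txn1, which encodes thioredoxin itself, rose by 0.84 and 0.82.

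Sod2 encodes the mitochondrial manganese superoxide dismutase. It (probe 10441815, chr17:13007839-13018119) read from 10.60 to 10.70 (median 10.63) in wild type at basal and from 10.74 to 10.88 (median 10.84) after learning. In the FoxO6 mutant the gene read from 10.54 to 10.68 (median 10.61) at basal and from 10.75 to 10.88 (median 10.79) after learning. The shift was small but the arrays did not overlap. It rose by 0.19 in each genotype (SE 0.0328, 1.14-fold, adjusted p = 2.66e-05 in wild type and 1.55e-05 in the mutant), larger in size than 60.1% and 63.2% of all genes' differences.

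Fbxo32 and Cited2 went the other way. Fbxo32 encodes atrogin-1, the muscle ubiquitin ligase subunit whose induction by FoxO factors marks muscle atrophy. It (probe 10428796, chr15:58175879-58214892) read from 7.45 to 7.58 (median 7.52) in wild type at basal and from 6.87 to 7.30 (median 7.13) after learning. Readings in mutants ran from 7.42 to 7.61 (median 7.56) at basal and from 6.96 to 7.37 (median 7.08) after learning. Every learning array lay below every basal array of its genotype. Fbxo32 differed by -0.37 (SE 0.0682, 0.772-fold, adjusted p = 3.98e-05) in wild type and by -0.44 (0.736-fold, adjusted p = 3.53e-06) in the mutant. The other atrophy ligase, Trim63, encoding MuRF1, differed by 0.01 and 0.08 and did not pass (adjusted p = 0.939 and 0.526).

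Cited2 encodes a cofactor of CBP and p300 that competes with HIF-1 alpha for them. It (probe 10361828, chr10:17723228-17725674) read from 9.74 to 9.87 (median 9.78) in wild type at basal and from 9.28 to 9.52 (median 9.45) after learning. Mutants gave values from 9.72 to 10.04 (median 9.89) at basal and from 9.37 to 9.49 (median 9.44) after learning. The states did not overlap in either genotype. The difference was -0.37 (SE 0.0491, 0.776-fold, adjusted p = 3.68e-07) in wild type and -0.46 (0.729-fold, adjusted p = 6.98e-09) in the mutant. Its relatives Cited1 and Cited4 were not called in wild type.

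**Figure D2:**
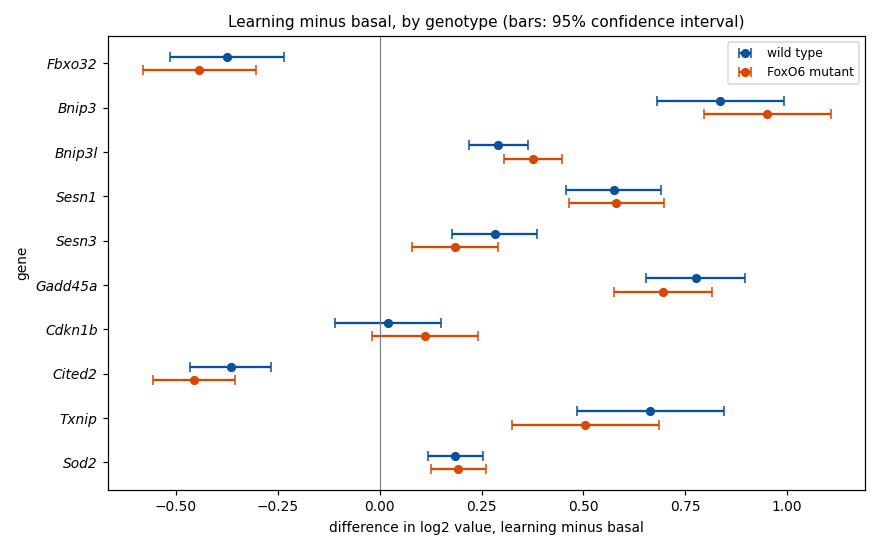
Difference in log2 value between learning and basal arrays (horizontal axis) for the 10 genes, in wild type and in the FoxO6 mutant; points are differences of means of 6 and 6 arrays and bars are 95% confidence intervals. Bnip3, Gadd45a, Txnip, Sesn1, Bnip3l, Sesn3 and Sod2 lie above 0 in both genotypes, Fbxo32 and Cited2 below 0, and the intervals of Cdkn1b include 0.

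**Figure D3:**
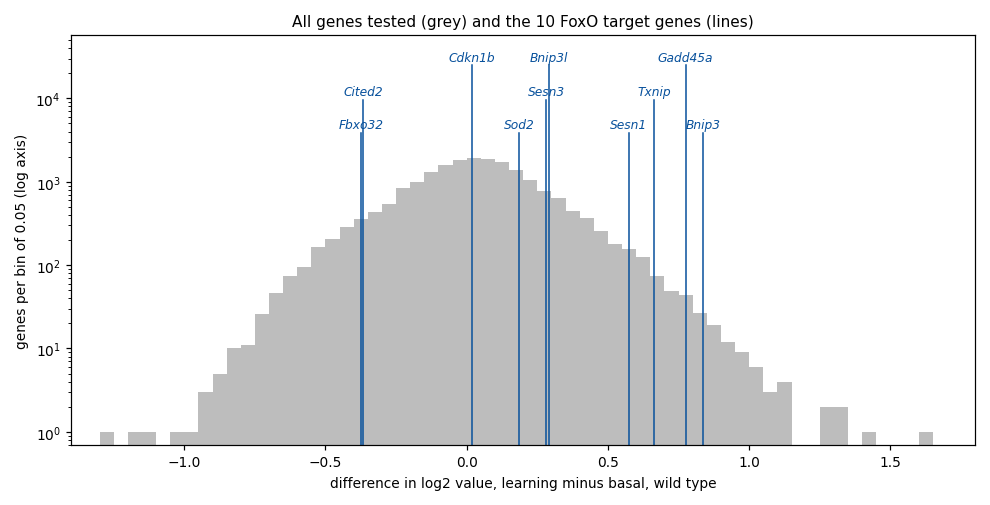
Number of genes per bin of 0.05 (vertical log axis) by their learning minus basal difference in wild type on the log2 scale (horizontal axis), for all 19938 genes in grey, with lines at the 10 target genes. Bnip3 and Gadd45a lie near the upper tail, at 0.84 and 0.78, and Cdkn1b lies at 0.02 near the centre.

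Among the FoxO genes themselves, Foxo1 fell after learning by 0.24 in wild type (SE 0.0534, adjusted p = 0.000518), and the mutant value fell by 0.42 (adjusted p = 1.74e-07). Foxo4 fell by 0.17 in wild type (adjusted p = 0.0258) and differed by -0.13 in the mutant (adjusted p = 0.0952). Foxo3 differed by 0.05 and -0.05 and passed in neither.

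Over all genes tested, 25.1% rose and 18.2% fell in wild type, and 22.6% rose and 18.7% fell in the mutant. Of 31 measured genes of 32 on a list of other FoxO targets, 15 rose, 4 fell and 12 did not pass in wild type. In the mutant the counts were 13, 4 and 14. The median difference of these genes was 0.12 in wild type and 0.10 in the mutant. Those with the smallest p among the risers in wild type were Ddit4 (REDD1, an mTORC1 inhibitor) at 0.76, Trp53inp1 at 0.55, Fbxo30 (MUSA1, a muscle atrophy ligase) at 0.68 and Atg12 (autophagosome conjugation) at 0.53. Among those that fell were Ulk1 (the autophagy kinase) at -0.32, Fbxo21 (SMART, another atrophy ligase) at -0.19, Irs2 at -0.24 and Tnfsf10 (TRAIL) at -0.37. Of the members' 15 measured family relatives of 16, 6 rose and 2 fell in wild type, and 6 rose and 3 fell in the mutant (median -0.03 and 0.13). Txn1 rose by 0.84 and Sod1, the cytosolic superoxide dismutase, by 0.37, while Txnrd1 and Txn2, encoding thioredoxin reductase and mitochondrial thioredoxin, fell by 0.24 and 0.12 in wild type. Sesn2, the other sestrin, differed by -0.03 in wild type and was not called.

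Of 20 measured FoxO regulators of 22, 8 rose and 10 fell in wild type (median -0.02). In the mutant 6 rose and 8 fell (median -0.06). The shares over all genes were 25.1% rising and 18.2% falling in wild type, and 22.6% and 18.7% in the mutant. Sgk1, a glucocorticoid-induced kinase that phosphorylates FoxO proteins, rose by 0.88 in wild type and 0.73 in the mutant. Insr (insulin receptor), Mapk8 (JNK1) and Pik3ca rose by 0.53, 0.27 and 0.28 in wild type. Ywhae (14-3-3 epsilon, which holds phosphorylated FoxO in the cytoplasm), Crebbp, Akt1 and Irs1 fell by 0.50, 0.45, 0.44 and 0.43 in wild type.

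The 3 remaining lists cover programmes whose inducers also act on some of the targets. Their counts stand beside 25.1% of all genes rising and 18.2% falling in wild type, and 22.6% and 18.7% in the mutant. Of 15 measured glucocorticoid-responsive genes of 16, 10 rose and 1 fell in wild type (median 0.58). In the mutant 11 rose and 1 fell (median 0.56). Tsc22d3 (GILZ) rose by 0.92 and Mt2 (metallothionein) by 0.79 in wild type, and Zbtb16 fell by 0.22. Sgk1, Ddit4 and Pdk4, each on a list given above, stand on this list too. The lists share other genes, among them Trp53inp1 and Btg2, and a shared gene counts under each. Fkbp5 and Per1 were called in neither genotype, at 0.13 and 0.01 in wild type. Of 12 activity-induced genes, 11 rose and 0 fell in each genotype (median 0.54 and 0.60), led by Fos at 1.60, Egr2 at 1.07, Arc at 0.87 and Nr4a1 at 0.72 in wild type. Of 8 measured p53 targets of 10, 3 rose and 0 fell in wild type, Trp53inp1, Btg2 at 0.45 and Mdm2 at 0.32, and in the mutant 3 rose and 2 fell (median 0.09 and 0.03). The part of any of these programmes in the rise of the FoxO targets was not tested.

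**Figure D4:**
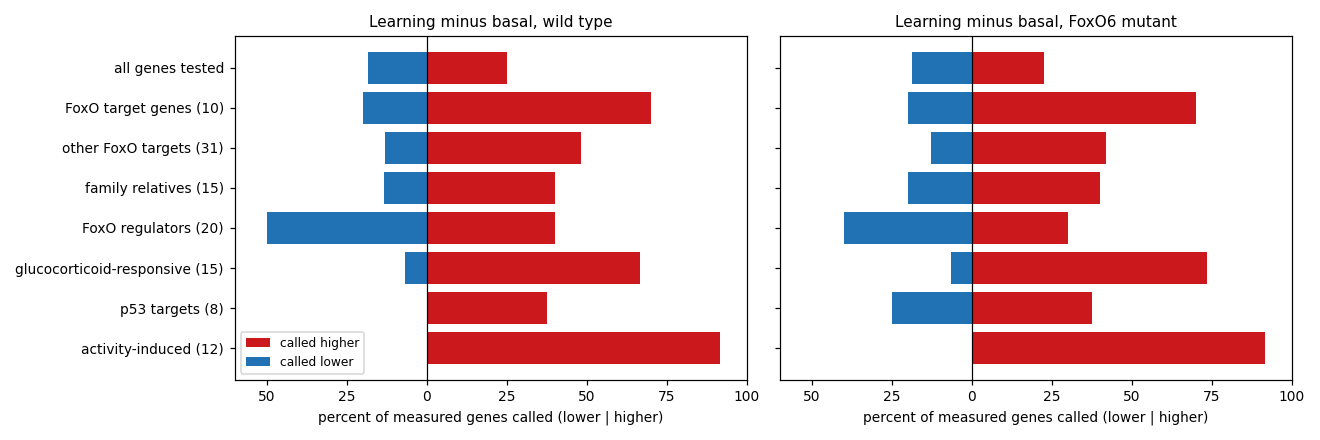
Percent of measured genes called higher (right of 0) and lower (left of 0) after learning in wild type and in the FoxO6 mutant, for all genes tested, the 10 FoxO target genes and 6 other gene lists, with the number of measured genes in parentheses. The activity-induced list has 11 of 12 genes called higher in each panel, and the FoxO regulators have the largest share called lower, 10 of 20 in wild type.

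The comparison of genotypes asks whether loss of FoxO6 altered the targets. No target was called in either state: 0 of 10 at basal, where 0.1% of all genes were called, and 0 of 10 after learning, where 0.0752% were called. Averaged over the states, 0 of 10 were called, against 0.391% of all genes. Counted at an unadjusted p under 0.05 with the probes used, 1 target passed at basal (Sesn1, against 4.5% of all genes). After learning 2 passed (Sesn1 and Txnip, against 7.33%), as did the same 2 on average (against 8.86%). The differences ran from -0.16 to 0.10 at basal and from -0.32 to 0.09 after learning, with 8 and 7 of 10 below 0; the median was -0.04 and -0.03, against 0.01 and 0.00 over all genes. The wild-type and mutant ranges overlapped for every target in both states. Both states' differences rest on separate arrays, whereas the comparisons of states within a genotype share arrays with them.

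Txnip differed most. After learning, wild-type arrays 1 to 6 read 8.92, 8.71, 8.40, 8.24, 8.21 and 8.55, and mutant arrays read 8.21, 8.16, 8.16, 8.10, 8.17 and 8.30. All 6 mutant arrays lay below the wild-type mean and 4 lay below the lowest wild-type array. The difference was -0.32 (SE 0.0879, 95% confidence interval -0.50 to -0.14, 0.802-fold), with an adjusted p of 0.302 by limma. At basal it was -0.16 (95% confidence interval -0.34 to 0.02, adjusted p = 1.00), with 5 of 6 mutant arrays below the wild-type mean and 4 below the lowest wild-type array. The average over the states was -0.24 (SE 0.0621, adjusted p = 0.106), larger in size than for 99.5% of genes. When 1 array was left out, the average ran from -0.27 to -0.20 and the difference after learning from -0.38 to -0.24. The average passed only without wild-type learning array 4 (-0.27, limma adjusted p = 0.0444) or array 5 (-0.27, adjusted p = 0.0380). These are the lowest Txnip readings of that group, so leaving either out raises the wild-type mean. Over all alternatives tried, the adjusted p of the average reached 0.275. The within-group correlation of Txnip with the choroid plexus marker mean was -0.01.

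Sesn1 had the next largest average difference by the probes used. At basal, wild-type arrays 1 to 6 read 8.66, 8.87, 8.63, 8.91, 8.79 and 8.81, and mutant arrays read 8.58, 8.61, 8.68, 8.73, 8.64 and 8.57. All 6 mutant arrays lay below the wild-type mean, as did 5 of 6 after learning. The difference was -0.15 at basal (SE 0.0570, 0.904-fold, adjusted p = 0.992) and -0.14 after learning (0.909-fold, adjusted p = 0.596), and it averaged -0.14 (SE 0.0403, adjusted p = 0.172). Its within-group correlation with the choroid plexus marker mean was -0.19.

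With the probes used, the remaining 8 targets had 95% confidence intervals that included 0 in both states. After learning, Gadd45a differed by -0.12 (-0.24 to 0.00, adjusted p = 0.686) with 5 of 6 mutant arrays below the wild-type mean, and Sesn3 by -0.10 (-0.21 to 0.00, adjusted p = 0.695) with 6 of 6. At basal, Cdkn1b differed by -0.12 (-0.25 to 0.01) with 6 of 6 mutant arrays below the wild-type mean, and Cited2 by 0.10 (0.00 to 0.20). The intervals of Sod2 were the narrowest, -0.10 to 0.04 at basal and -0.09 to 0.04 after learning. Bnip3 differed by -0.03 (-0.18 to 0.13) and 0.09 (-0.07 to 0.24), Bnip3l by -0.05 and 0.04, and Fbxo32 by 0.03 and -0.03. When 1 array was left out, Bnip3l ran from -0.07 to -0.02 at basal and from 0.02 to 0.05 after learning, Bnip3 after learning from 0.04 to 0.13, and Fbxo32 from 0.02 to 0.06 and from -0.088 to -0.0022. A fall of the size of Sesn1's lay inside at least 1 of the intervals of Fbxo32, Bnip3, Sesn3, Gadd45a and Cdkn1b, and outside both intervals of Bnip3l, Cited2 and Sod2. The second probe of Cdkn1b differed by -0.42 after learning (SE 0.173, limma unadjusted p = 0.0228, adjusted p = 0.619). On average over the states it differed by -0.30 (limma unadjusted p = 0.0203, adjusted p = 0.458). The second probe of Bnip3 differed by 0.01 at basal and -0.01 after learning.

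**Figure D5:**
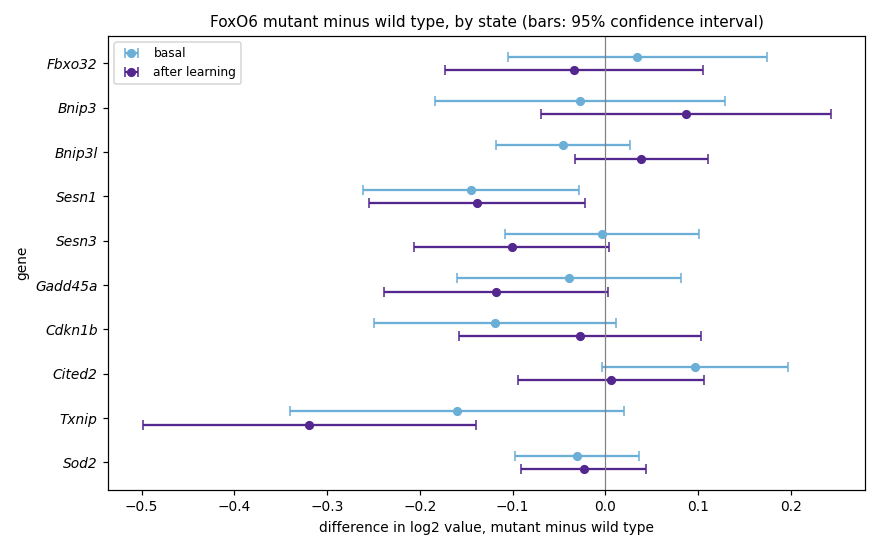
Difference in log2 value between FoxO6 mutant and wild type (horizontal axis) for the 10 genes, at basal and after learning; points are differences of means of 6 and 6 arrays and bars are 95% confidence intervals. Txnip after learning lies at -0.32 and Sesn1 at -0.15 and -0.14, and the intervals of the other 8 genes include 0 in both states.

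The interaction, the mutant's change after learning minus the wild type's, was called for 0 of the 10 targets and for 0% of all genes. With the probes used, 510 genes, 2.56%, and 0 targets had an unadjusted p under 0.05. Values of the interaction ran from -0.16 for Txnip (95% confidence interval -0.41 to 0.09) to 0.11 for Bnip3 (-0.11 to 0.34). When 1 array was left out, the Txnip value ran from -0.22 to -0.08 and the Bnip3 value from 0.06 to 0.18. The second probe of Bnip3 gave -0.02. That of Bnip3l gave 0.11 (limma unadjusted p = 0.0365) and was not called. None of the 6 lists had a called gene in any genotype comparison or in the interaction.

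After each group's mean was removed, the targets varied only loosely together over the 24 arrays, which share groups and normalization. Of 45 pairs, 32 had a Pearson correlation above 0; the range was -0.42 to 0.58 and the median 0.07. The lowest was between Fbxo32 and Txnip, the highest between Fbxo32 and Bnip3l, and Bnip3 and Bnip3l correlated at 0.45. Without the 2 arrays farthest from the first gene's median these 3 became -0.22, 0.60 and 0.22. The genes closest to each target by this measure reached 0.72 to 0.86 (Spearman 0.56 to 0.85), the highest among 19938 candidates, and fell to 0.47 to 0.81 without the 2 arrays farthest from the target's median. For Txnip they were Acer2 (0.84) and Frmd6 (0.73), which rose with it after learning, Acer2 by 0.79 in wild type and 0.91 in the mutant. For Bnip3 they were Tmx4 (0.84) and Prkcb (0.75), and for Bnip3l Vti1b and Dusp15 (both 0.82), where Vti1b rose by 0.30 and Dusp15 fell by 0.29 in wild type. For Sesn1 they were Lzic (0.80) and Prrg1 (0.76), for Sesn3 Gpat3 (0.76) and Fbxo8 (0.72), and for Gadd45a Coq8b (0.76) and Ncoa5 (0.74), both of which fell after learning. For Cdkn1b they were Tmco1 (0.80) and Oat (0.79), for Cited2 Dctd (0.86) and Has3 (0.78), for Sod2 Tctn3 (0.82) and Vxn (0.79), and for Fbxo32 Ttc7b and Rap1gap2 (both 0.79), Ttc7b falling by 0.45 in wild type beside it. Likeness within groups and direction after learning therefore did not always go together, as Lzic, which fell by 0.44 in wild type while Sesn1 rose, also shows.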

How the data were processed

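RNA from the hippocampus was hybridised to 24 arrays of the Mouse Gene 1.0 ST type. The deposited values are log2 intensities that the authors made with RMA, per the submitters' processing notes; neither its version nor the probe grouping is given in the sources used here. Of 35511 probes, 21789 had 1 symbol in GEO's platform annotation, 1621 several and 12101 none; 999 of the 19938 genes had several probes, and the probe with the highest mean was used. No value was missing. The number of arrays limits the precision.

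limma 3.58.1 in R 4.3.3 fitted 4 group means over 24 arrays (20 residual degrees of freedom) with trended eBayes and Benjamini-Hochberg adjustment over all 19938 genes; called means adjusted p below 0.05. The script was tested on simulated data. The 10 members and all lists were chosen with earlier results of these data known. Named genes were the members, the FoxO genes and the 2 genes most correlated with each member. Up to 4 called genes of each list and direction with the smallest p were also named. Relatives and list genes named beyond these (Trim63, Sesn2, Arrdc3, Arrdc4, Cited1, Cited4, Fkbp5, Per1, Pdk4, Spink8) were chosen after their values were seen. Normalization, probe choice, moderation, array weights, left-out arrays, a choroid plexus covariate and a replicate block were tried as alternatives. Replicate numbers did not pair the samples.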

Additional observations from a re-analysis of the deposited data

Results flagged for a closer look

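Of 40 checks of a target in a group of 6 arrays, 2 had a lowest or highest array farther from the rest than Dixon's 95% limit allows; chance alone marks about 1 group in 20. Bnip3l read 10.90 on wild-type basal array 6, where the highest array of the group read 11.03. Txnip read 7.85 on mutant basal array 6, above the next array at 7.70 and the lowest at 7.62. Both arrays were kept; without either one, the calls of these genes in each comparison were as reported.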

How the results depend on the processing

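Of the 10 targets, 9 were called in wild type after learning under every alternative tried, including the replicate block (9), which changed no call; of 24 same-number pairs of arrays, 4 correlated above 0.1 (range -0.30 to 0.26), and 1 array correlated best with its own number. In the mutant 9 were called, or 8 with the choroid covariate, where Sesn3 was lost. At basal, after learning and in the interaction, 0 were called under every alternative; on average over the states the count was 0, and 1 (Txnip) without wild-type learning array 4 or 5, so from 0 to 1 when 1 array was left out. Leaving out wild-type basal arrays 4, 5 and 6 together was chosen after seeing the data. Changes of sign occurred only in uncalled differences; their cause was not tested. Against wild type at basal, Sesn3 became 0.0084 with median centring, 0.034 with the choroid covariate and 0.055 without the 3 arrays, and Gadd45a became 0.015 and 0.023 in the last 2. On average, Fbxo32 became -0.0060 with array weights and -0.016 without the 3 arrays, Bnip3 became -0.0082 without them, and Bnip3l became 0.011 with the covariate. Cdkn1b in wild type after learning became -0.014 with a second quantile normalization and -0.0091 without the 3 arrays, and its interaction became -0.070 with the mean of both probes. The Sesn1 interaction became -0.011 with centring, -6.37e-05 with weights, -0.0012 with the covariate and -0.052 without the 3 arrays, and that of Sod2 became -0.010 with centring. When 1 array was left out, the ranges were -0.088 to 0.017 (Bnip3) and -0.039 to 0.036 (Sesn3) at basal; -0.080 to 0.038 (Cdkn1b) and -0.023 to 0.025 (Cited2) for genotype after learning; -0.027 to 0.016 (Fbxo32), -0.00074 to 0.052 (Bnip3) and -0.014 to 0.0090 (Bnip3l) on average; -0.046 to 0.072 for Cdkn1b in wild type; and -0.022 to 0.046 (Sesn1) and -0.010 to 0.021 (Sod2) for the interaction.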
